A study of Mus musculus with 14 samples.

Results

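The genes described here are 10 that make, lengthen and desaturate fatty acids, chosen by name, namely *Acly*, *Acaca*, *Fasn*, *Elovl5*, *Elovl6*, *Scd1*, *Scd2*, *Fads1*, *Fads2* and *Fads3*. They were found through 15 of the 55681 probes of a one-color mouse expression array, which carries 36095 gene names in all. Expression was measured in whole small intestine of C57BL/6J mice (3 arrays), in tissue adjacent to adenoma (2) and adenoma (3) of the APCmin/+ strain, in whole colon labelled C57BL/6J (3), and in CT26, a colon carcinoma cell line derived from BALB/c mice (3). APCmin/+ mice carry 1 truncated copy of the tumor suppressor gene *Apc* in every cell and develop intestinal adenomas. The wild type mice were adult, and the methods of the study state no age for the APCmin/+ mice. No group was treated for the experiment, but APCmin/+ mice found to suffer were given the analgesic buprenorphine. The small intestine arrays came from different mice. By contrast, all adenoma and adjacent arrays came from 1 mouse, so that their spread is that between pieces of tissue. The supplement lists 1 of the colon samples under an *Apc* mutant mouse, whereas its label gives C57BL/6J. CT26 is a single established line grown in culture.

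Cells build fatty acids from citrate that leaves the mitochondria. ATP citrate lyase (*Acly*) splits it into acetyl-CoA, acetyl-CoA carboxylase (*Acaca*) makes malonyl-CoA from that in the committed step, and fatty acid synthase (*Fasn*) joins these units into palmitate. The elongase *Elovl6* lengthens palmitate, the stearoyl-CoA desaturases *Scd1* and *Scd2* place a double bond in saturated chains, and *Elovl5* and the *Fads* enzymes act on the polyunsaturated fatty acids that come from the diet. *Fads2* catalyzes the opening desaturation of linoleic acid, *Fads1* a later one on the way to arachidonic acid, and *Fads3* acts on sphingoid bases. In liver and fat many of these genes are switched on together by the transcription factors SREBP-1 (*Srebf1*), ChREBP (*Mlxipl*) and LXR (*Nr1h3*), whereas the absorptive epithelium of the small intestine mostly takes up dietary fat and esterifies it again.

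The *Fads* genes lie side by side. Probe positions on chromosome 19 (NCBI37/mm9, as in the scanner files) were 10132641 to 10132700 for *Fads3*, 10137760 to 10137819 for *Fads2* and 10270530 to 10270589 for *Fads1*. *Scd2* (44381024 to 44381083) and *Scd1* (44469387 to 44469446) are neighbors further along the same chromosome. Chromosome 11 holds the probes read for *Acaca* (84215093 to 84215152), *Acly* (100337674 to 100337733) and *Fasn* (120667666 to 120667725). *Elovl5* lies on chromosome 9 (77832205 to 77832264) and *Elovl6* on chromosome 3 (129341248 to 129341307). No gene model of that build was used here, so exons and introns are not given for the probes.

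RefSeq promoter sequences of GRCm38.p6 were at hand for 7 of the 10 genes, all but *Fads1*, *Scd1* and *Scd2*. The 250 bases before the transcription start are shown for *Fads3* and *Acly*, whose signal differed between groups, and for *Fads2* and *Fasn*, which were not called through the probe read. Capitals mark the matches to the motifs searched on both strands, which were the sterol regulatory element TCACNCCAC, the E-box CACGTG, the CCAAT box CCAAT and the GC box GGGCGG.
Fads3, chr19:10041298-10041547, plus strand: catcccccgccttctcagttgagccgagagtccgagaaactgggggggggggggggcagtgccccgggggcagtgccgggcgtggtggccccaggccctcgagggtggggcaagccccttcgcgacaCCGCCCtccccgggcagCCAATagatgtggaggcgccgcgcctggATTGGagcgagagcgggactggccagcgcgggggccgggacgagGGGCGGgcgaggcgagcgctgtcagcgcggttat
Fads2, chr19:10101504-10101753, minus strand: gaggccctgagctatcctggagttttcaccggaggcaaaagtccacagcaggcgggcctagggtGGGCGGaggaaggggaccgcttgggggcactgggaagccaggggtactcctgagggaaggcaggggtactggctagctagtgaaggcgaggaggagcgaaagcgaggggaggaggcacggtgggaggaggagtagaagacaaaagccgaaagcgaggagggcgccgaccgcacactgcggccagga
Acly, chr11:100528001-100528250, minus strand: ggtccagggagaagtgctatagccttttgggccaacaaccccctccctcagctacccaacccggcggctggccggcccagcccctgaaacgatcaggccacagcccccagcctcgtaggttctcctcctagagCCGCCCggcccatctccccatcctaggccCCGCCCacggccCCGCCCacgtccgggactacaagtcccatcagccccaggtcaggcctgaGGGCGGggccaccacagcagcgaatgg
Fasn, chr11:120824548-120824797, minus strand: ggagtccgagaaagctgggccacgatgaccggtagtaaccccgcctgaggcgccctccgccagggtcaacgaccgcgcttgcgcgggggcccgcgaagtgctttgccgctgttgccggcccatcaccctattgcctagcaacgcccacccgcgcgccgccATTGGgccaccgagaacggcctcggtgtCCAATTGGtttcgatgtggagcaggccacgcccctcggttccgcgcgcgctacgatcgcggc
*Fads3* held 2 CCAAT boxes and 2 GC boxes, *Acly* 4 GC boxes, *Fads2* 1 GC box, and *Fasn* 3 CCAAT boxes, of which 2 overlap on opposite strands. Over the 7 promoters, 3 held a CCAAT box and 3 a GC box, while 33.8% and 32.7% of 32851 promoters of the same length did. The E-box was found in 1 of the 7, that of *Elovl5*, and in 6.02% of all promoters. None of the 7 windows held the sterol regulatory element in these letters, which 1.05% of all promoters did.

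Values are the log2 of the background-subtracted signal minus the 75th percentile of the array, called scaled log2 signal below. They compare a probe between arrays and not one probe with another. A gene was read from the brightest of its probes, and for all 10 genes this probe was well above background and not saturated on all 14 arrays. The share of all probes well above background on an array ran from 46.8%, on colon replicate 3, to 58.2%. That array also stood apart by its markers. The summed signal of 10 markers of small intestine enterocytes was 12.30 (log2) there and 6.91 and 7.60 on the other colon arrays. In small intestine it was 11.54 to 11.99. The 6 colonocyte markers summed to 9.62 on colon replicate 3, 8.98 and 9.12 on the other colon arrays and at most 5.15 in small intestine. Their median was 3.41 on colon replicate 3, against 6.01 and 6.13 on the other colon arrays. Calls that involve colon are therefore given with and without replicate 3. Groups were compared in pairs with limma, and a gene was called where the size of its log2 fold change reached 1.2 and its p, adjusted over all probes tested by the Benjamini-Hochberg method, was no higher than 0.01, the thresholds of the study. Overlap between the arrays of groups was not counted over all genes, so no background is given where it is named below. In whole tissue, fewer cells of a type and less RNA per cell cannot be told apart.

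The clearest differences were in the desaturases. *Fads3* and *Fads1* were lowest in small intestine, higher in adenomas and highest in CT26, and *Scd1* was high in CT26. *Acly* was higher in adenomas than in small intestine. *Fasn*, *Elovl5*, *Elovl6*, *Acaca*, *Fads2* and *Scd2* passed both thresholds in no comparison through the probe read, and no gene was called lower in the first group of any of the 7 comparisons.

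**Figure D1:**
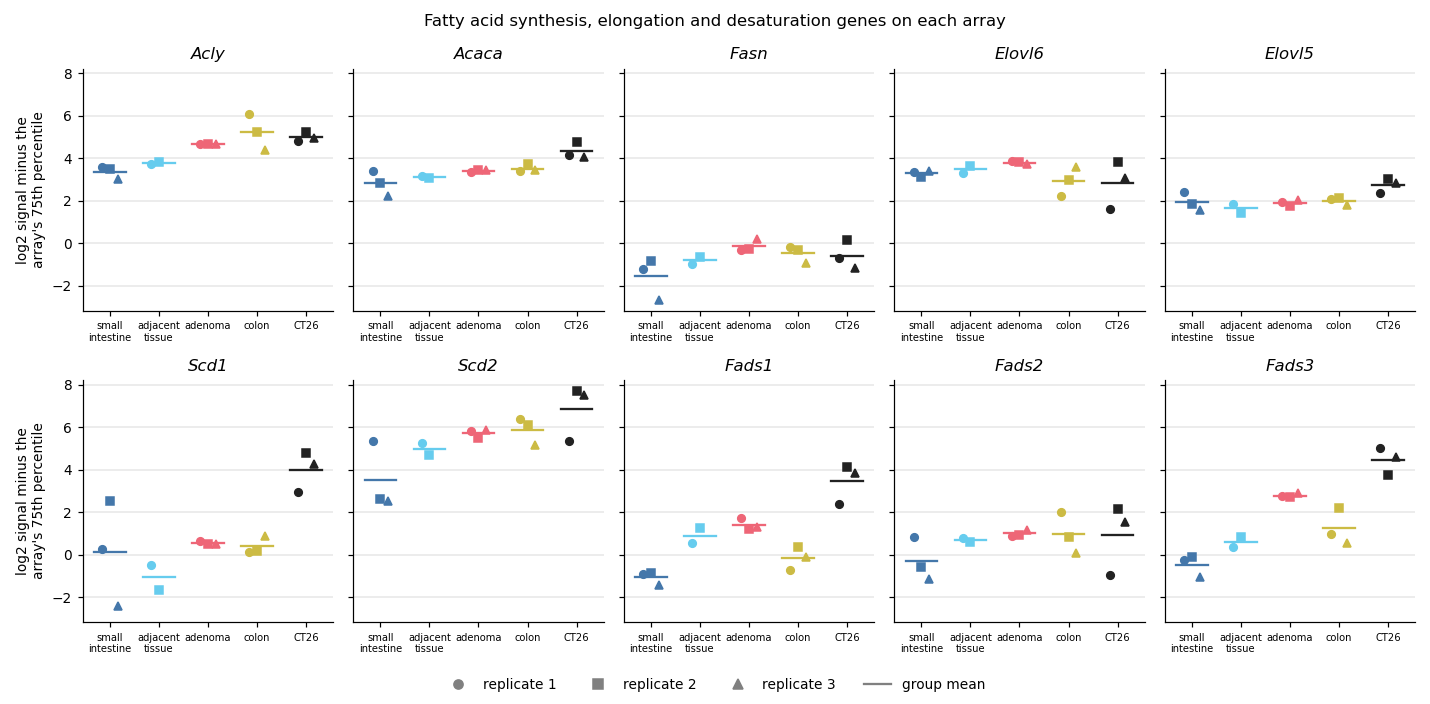
Scaled log2 signal (vertical axis, log2 signal minus the 75th percentile of the array) of the 10 genes on each of the 14 arrays, with 1 marker per array, shaped by replicate number, and a line at the group mean. The CT26 arrays lie above all others in Fads1, Fads3 and Scd1, the adenoma arrays lie close together in every gene, and the small intestine arrays lie far apart in Scd1 and Scd2.

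Of the enzymes that make palmitate, *Acly* gave 3.58, 3.48 and 3.04 on the small intestine arrays, 3.72 and 3.82 on the adjacent arrays and 4.67, 4.66 and 4.69 on the adenoma arrays. It gave 6.08, 5.24 and 4.40 in colon and 4.82, 5.22 and 4.95 in CT26. Each adenoma array lay above each adjacent array, and each adjacent array above each small intestine array, while colon and CT26 overlapped. The mean was 3.37 ± 0.28 (SD, n = 3) in small intestine, 4.67 ± 0.02 (n = 3) in adenomas and 5.24 ± 0.84 (n = 3) in colon, where replicate 3 was the lowest array and the mean without it was 5.66.

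*Acaca*, the committed step, read 3.41, 2.83 and 2.22 in small intestine, 3.18 and 3.07 in adjacent tissue, and 3.34, 3.44 and 3.46 in adenomas. The colon arrays were at 3.40, 3.72 and 3.43 and the CT26 arrays at 4.15, 4.75 and 4.06. Each CT26 array lay above every tissue array, by 0.80 over colon in the mean, and among neighbors in the order of the tissue means only adenomas and adjacent tissue did not overlap. *Fasn* read -1.21, -0.81 and -2.64 in small intestine, -0.97 and -0.64 in adjacent tissue, -0.33, -0.26 and 0.19 in adenomas, -0.18, -0.31 and -0.92 in colon and -0.69, 0.14 and -1.16 in CT26. Every neighbor in the order of its group means overlapped, from adenomas (-0.13 ± 0.28, n = 3) through colon, CT26 and adjacent tissue to small intestine (-1.56 ± 0.96, n = 3).

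Of the elongases, *Elovl5* had the narrowest range of the 10 genes over the 11 tissue arrays, from 1.45 to 2.40, and read 2.37, 3.03 and 2.84 in CT26, where the mean of 2.75 ± 0.34 (SD, n = 3) was 0.73 above colon. *Elovl6* was highest in adenomas, with 3.87, 3.83 and 3.71, against 3.30 and 3.64 in adjacent tissue and 3.36, 3.12 and 3.40 in small intestine. Colon and CT26 spread widely, with 2.24, 2.97 and 3.60 and with 1.61, 3.83 and 3.095. Colon replicate 3 was the highest of the colon arrays here, whereas for *Acly* it was the lowest.

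*Scd1*, which makes oleate and palmitoleate, read 2.94, 4.76 and 4.28 in CT26, 0.64, 0.52 and 0.48 in adenomas, 0.13, 0.18 and 0.86 in colon and -0.49 and -1.65 in adjacent tissue. The small intestine arrays were at 0.28, 2.54 and -2.43, a range wider than that of all other tissue arrays together. *Thrsp*, a regulator of lipogenic genes named after its values were seen, also had its widest spread there, from -3.94 to 2.05. *Scd2*, an isoform prominent in brain, read 5.36, 2.60 and 2.54 in small intestine, 5.24 and 4.68 in adjacent tissue, 5.79, 5.49 and 5.86 in adenomas, 6.39, 6.08 and 5.15 in colon and 5.33, 7.70 and 7.52 in CT26. Its group means ran from 3.50 ± 1.61 (SD, n = 3) in small intestine to 6.85 ± 1.32 (n = 3) in CT26, but only adenomas and adjacent tissue were neighbors without overlap.

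*Fads1* was at -0.90, -0.84 and -1.45 in small intestine and at -0.72, 0.36 and -0.13 in colon. It was at 0.55 and 1.23 in adjacent tissue, 1.71, 1.198 and 1.31 in adenomas and 2.39, 4.14 and 3.85 in CT26. The order of the means was thus CT26, adenomas, adjacent tissue, colon and small intestine, and only adenomas and adjacent tissue overlapped among neighbors. *Fads3* read -0.24, -0.13 and -1.05 in small intestine, 0.36 and 0.85 in adjacent tissue, 0.98, 2.19 and 0.55 in colon, 2.75, 2.70 and 2.88 in adenomas and 4.999, 3.73 and 4.61 in CT26. Adjacent tissue and colon overlapped, and the adenoma and CT26 arrays each formed a step above all groups below them.

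*Fads2*, whose probe lies between the other two *Fads* probes, read 0.81, -0.59 and -1.13 in small intestine, 0.76 and 0.61 in adjacent tissue, 0.90, 0.95 and 1.18 in adenomas, 2.02, 0.82 and 0.06 in colon and -0.96, 2.13 and 1.54 in CT26. All neighbors in the order of its means overlapped. CT26 replicate 1, the lowest of its group in *Fads2*, was also the lowest in *Fads1*, *Scd1*, *Scd2*, *Elovl5*, *Elovl6* and *Acly* but the highest in *Fads3*. Over the 14 arrays, Pearson's r was 0.883 between *Fads1* and *Fads3* and 0.837 over the 11 arrays without CT26, against 0.439 and 0.459 between *Fads1* and *Fads2*. *Fads2* was closer to *Scd2*, with r = 0.834 and 0.922. These values describe arrays that share groups, slides and scaling.

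Adenomas of a single APCmin/+ mouse were compared with healthy small intestine of different wild type mice. Adjacent tissue of the APCmin/+ mouse also lay above small intestine in *Fads1* (1.96), *Fads3* (1.08) and *Acly* (0.40), without a call. In the comparison of adenomas with small intestine, tumor, genotype and animal thus differ together, and their parts were not tested. Its p-values treat pieces of tissue from the same mouse as replicates. *Fads3*, *Fads1* and *Acly* were higher in adenomas, and none of the 10 genes was called lower. Among all 22066 genes tested, 11.3% were called higher and 11.1% lower. *Fads3* differed by 3.25 on the log2 scale (standard error 0.263, limma adjusted p = 0.000198). *Fads1* followed with 2.47 (standard error 0.233, adjusted p = 0.000331), and *Acly* with 1.31 (standard error 0.188, adjusted p = 0.00167). *Scd2* (2.22), *Fasn* (1.42), *Fads2* (1.31) and *Elovl6* (0.51) had adjusted p-values from 0.0331 to 0.0489, with no overlap between the groups. *Acaca* (0.59), *Scd1* (0.42) and *Elovl5* (-0.04) had groups that overlapped. The median over the 10 genes was 1.31, beside -0.15 over all genes tested. Of the 10 genes 7 had an unadjusted p under 0.05, as did 13251 of all 22066.

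Slide 1 held 2 arrays of each of these groups and slide 2 held 1 of each. Within slides 1 and 2 the differences were 3.46 and 2.83 for *Fads3*, 2.68 and 2.04 for *Fads1* and 1.37 and 1.18 for *Acly*. *Acly* was no longer called without small intestine replicate 3 (log2 fold change 1.14), without adenoma replicate 2 (adjusted p = 0.0103) or 3 (0.0101), or with all 5 groups in 1 fit (0.0106). Without small intestine replicate 1, *Scd2* (3.15, adjusted p = 0.000174) and *Fads2* (1.87, 0.00101) were called as well, and another probe of *Fads2* was called with all arrays (1.60, adjusted p = 0.00942). The other probe of *Acly* was not called (0.85, adjusted p = 0.0121).

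**Figure D2:**
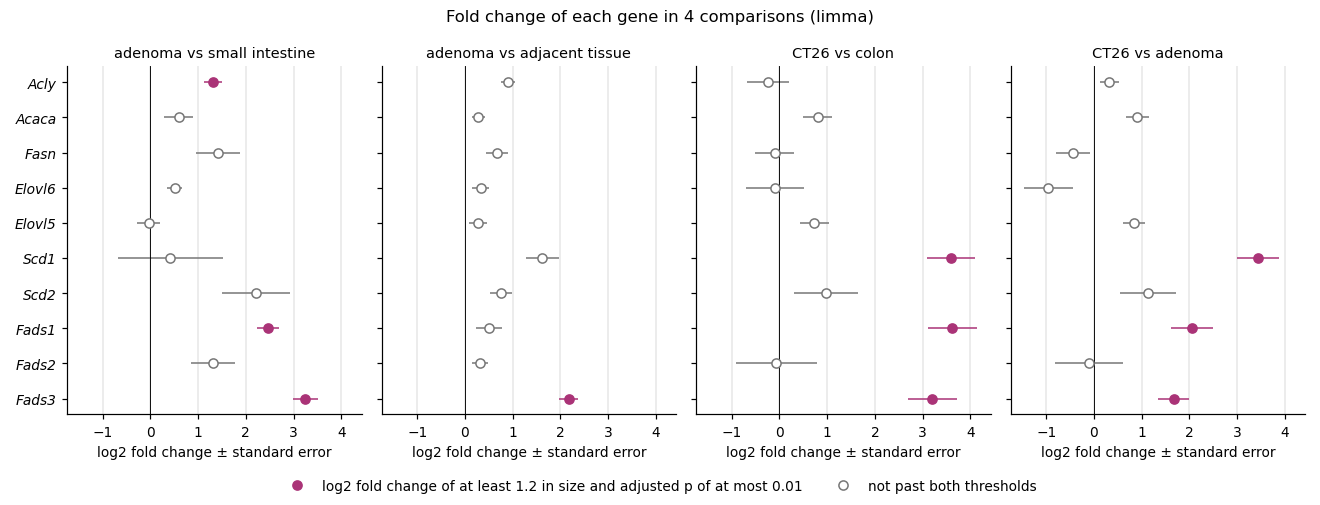
Log2 fold change with its standard error (horizontal axis, first group minus second) of the 10 genes in 4 of the comparisons, by limma, with genes past both thresholds as filled points. Fads3 is filled in all 4 panels, Fads1 in 3, Scd1 in both CT26 panels and Acly between adenoma and small intestine.

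Adenomas were also set against tissue adjacent to them in the same mouse. *Fads3* alone was called, higher in adenomas by 2.17 (standard error 0.197, limma adjusted p = 0.00446), where 2.4% of 22169 genes were called higher and 1.77% lower. *Scd1* (1.62, adjusted p = 0.0287) and *Acly* (0.90, adjusted p = 0.014) lay higher on each adenoma array, as did *Acaca*, *Fasn*, *Elovl6*, *Fads2* and *Scd2*, without passing the thresholds. *Fads1* differed by 0.51 (adjusted p = 0.222) and *Elovl5* by 0.27 (0.338), with overlap. The median was 0.59 over the 10 genes and -0.03 over all genes tested. Of the 10 genes 5 had an unadjusted p under 0.05, as did 8494 of all 22169.

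With few arrays this call was close to its limit. Within slides *Fads3* differed by 2.45 (2 adenoma arrays against 1 adjacent array) and 1.85 (1 against 1). Its limma adjusted p was 0.0118 with the slide as a block, and 0.0217, 0.0365 and 0.0214 without adenoma replicates 1, 2 and 3. Leaving out adjacent replicate 1 left 1 adjacent array, from which *Fads3* differed by 1.93 and *Scd1* by 2.20.

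Between adjacent tissue and healthy small intestine none of the 10 genes was called, in a comparison in which 0.00925% of 21610 genes were called higher and 0% lower. An unadjusted p under 0.05 was found for 2 of the 10 genes and for 6624 of all genes. *Fads1* came closest (1.96, standard error 0.317, limma adjusted p = 0.0504), higher on both adjacent arrays than on any small intestine array. *Fads3* (1.08, adjusted p = 0.113) and *Acly* (0.40, 0.304) also lay higher without overlap, and the median over the 10 genes was 0.58 beside -0.10 over all genes.

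None of the 10 genes was called between colon and small intestine, the normal tissues, with 0.00485% of 20611 genes called higher and 0.00485% lower, and an unadjusted p under 0.05 for 4 of the 10 genes and 4918 of all. Without colon replicate 3, *Acly* was higher in colon by 2.29 (standard error 0.336, limma adjusted p = 0.00778), and 3.33% of 22565 genes were called higher and 3.9% lower. In that fit *Fads3* (2.06, adjusted p = 0.0261), *Scd2* (2.74, 0.0679) and *Fads2* (1.73, 0.0998) had the next lowest p-values. With the array kept, *Acly* differed by 1.87 (adjusted p = 0.0922) and *Fads3* by 1.71 (0.119).

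None of the 10 genes was called between adenomas and colon either, where 2.08% of 21831 genes were called higher in adenomas and 1.62% lower, and an unadjusted p under 0.05 was found for 3 of the 10 genes and 6368 of all. *Fads1* (1.57, limma adjusted p = 0.0307), *Fads3* (1.54, 0.0695) and *Elovl6* (0.87, 0.175) lay higher on each adenoma array. Without colon replicate 3 the backgrounds were 5.04% and 6.68%, still with none of the 10 called, and *Elovl6* differed by 1.197 (adjusted p = 0.0188), *Fads1* by 1.59 (0.0242) and *Acly* by -0.99 (0.0421).

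CT26 cells were compared with colon, the tissue of origin. *Fads1*, *Scd1* and *Fads3* were higher in CT26, each by more than 3 on the log2 scale, and no gene of the 10 was called lower. Over all 21662 genes, 21% were called higher and 16.1% lower. *Fads1* differed by 3.63 (standard error 0.520, limma adjusted p = 0.000885), *Scd1* by 3.60 (standard error 0.501, adjusted p = 0.000763) and *Fads3* by 3.21 (standard error 0.517, adjusted p = 0.00157). *Acaca* (0.80, adjusted p = 0.0601) and *Elovl5* (0.73, 0.0742) lay higher on each CT26 array, and the other 5 genes overlapped. The median of the 10 was 0.77, against 0.32 over all genes. Within slides the differences were 2.76 and 4.57 for *Fads1*, 3.43 and 4.26 for *Scd1* and 2.61 and 2.97 for *Fads3*. Without colon replicate 3 the same 3 genes were called, at 3.64, 3.84 and 2.86 in that order, with 20.1% of 23151 genes called higher and 19.4% lower.

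The same 3 genes were called when CT26 was compared with adenomas, where 22% of 22801 genes were called higher and 20% lower. This comparison shares the CT26 arrays with the one above. *Scd1* was higher in CT26 by 3.44 (standard error 0.435, limma adjusted p = 0.000277), *Fads1* by 2.06 (standard error 0.444, adjusted p = 0.00458) and *Fads3* by 1.67 (standard error 0.326, adjusted p = 0.00275). *Acaca* (0.91, adjusted p = 0.011), *Elovl5* (0.84, 0.0145) and *Acly* (0.32, 0.183) lay higher on each CT26 array. The median was 0.87 over the 10 genes and 0.34 over all. *Scd1* differed by 3.04 and 4.24 within slides, *Fads1* by 1.61 and 2.94 and *Fads3* by 1.99 and 1.03.

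*Fads1* and *Fads3* depended on the processing here. After quantile normalization they differed by 1.65 (adjusted p = 0.0198) and 1.17 (0.0128), and in the authors' table by 1.68 (0.0155) and just under 1.2 (0.00901), past both thresholds in neither. *Fads1* was not called without adenoma replicate 2 or 3 or CT26 replicate 2 or 3, nor *Fads3* without adenoma replicate 1 or 2 or CT26 replicate 3. Without CT26 replicate 1, *Scd2* was called (1.90, adjusted p = 0.000209).

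Several genes had more than 1 probe, and those of *Acly* differed in how CT26 compared with the tissues. The probe of *Acly* not read here, at 100365518 to 100365577, read -2.27, -2.66 and -2.63 in small intestine, -2.04 and -1.91 in adjacent tissue, -1.96, -1.49 and -1.57 in adenomas, -0.19, -1.68 and -0.93 in colon and -2.67, -2.001 and -2.47 in CT26. It lay lower in CT26 than on any adenoma or colon array, by -0.71 (limma adjusted p = 0.0385) and -1.45 (0.0234), where the probe read gave 0.32 and -0.24. Of the 4 probes of *Acaca*, the dimmest (84211638 to 84211697), which was well above background on 10 arrays, was called higher in CT26 than in colon (1.46, adjusted p = 0.00873) and adenomas (1.48, adjusted p = 0.00143). Without colon replicate 3 it was not called against colon (1.21, adjusted p = 0.0139), and the other probe of *Acly* differed there by -1.45 (0.0367). Another probe of *Acaca* differed by 0.09 from colon (adjusted p = 0.818) and 0.36 from adenomas (0.181).

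**Figure D3:**
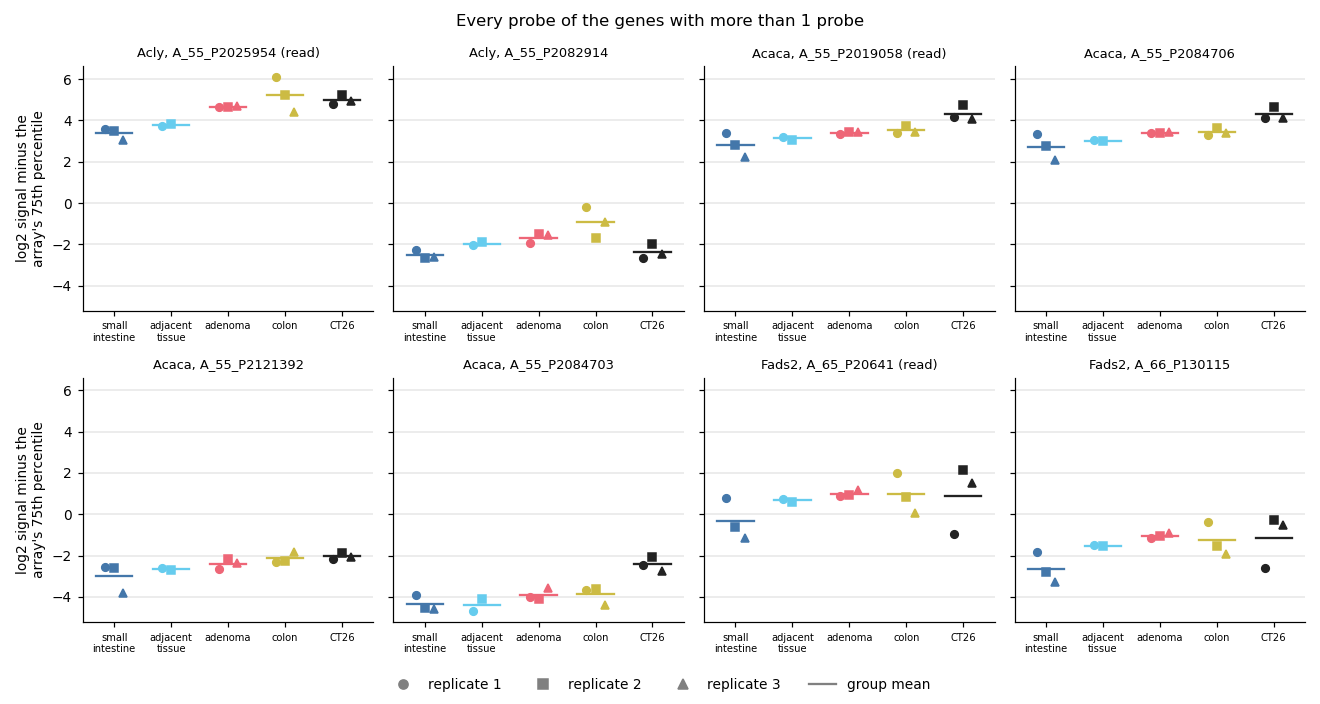
Scaled log2 signal (vertical axis) on each array of every probe of Acly, Acaca and Fads2, with 1 marker per array and a line at the group mean. CT26 lies near the top for the probe read for Acly and at the level of small intestine for the other probe of Acly.

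Other genes of the pathway were followed in 5 lists, 49 genes in all. Between adenomas and small intestine, 45 of them were tested, and 1 was called higher and 8 lower, with a median of -0.02, where 11.3% of all genes were called higher and 11.1% lower. *Acsl4*, which activates arachidonic acid for esterification, was the one that was higher, by 3.29 (standard error 0.146, limma adjusted p = 4.87e-05), from -0.81 ± 0.07 (SD, n = 3) to 2.47 ± 0.05 (n = 3). Of 10 genes for activation and esterification, 4 were lower, among them *Dgat1* (-2.69), which makes triglycerides, and the acyl-CoA synthetase *Acsl5* (-1.84). Of 14 regulators 3 were lower, including *Nr1h3* (-2.58) and *Mlxipl* (-2.11). *Cyb5a* (-1.73), the cytochrome that passes electrons to desaturases, was called among 7 genes of that list, and none of the 7 supply genes or of the 7 elongation genes tested was called, with an unadjusted p under 0.05 for 0 and 1 of them. Over all genes such a p was found for 13251 of 22066.

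*Srebf1*, named after its values were seen, was called in no comparison, with means from -1.49 ± 0.49 (SD, n = 3) in colon to -0.72 ± 0.26 (n = 3) in small intestine. *Acsl4* was also the only pathway gene called between adenomas and adjacent tissue, by 1.96 (standard error 0.149, limma adjusted p = 0.00305). There 2.4% of all genes were called higher and 1.77% lower. Between adjacent tissue and small intestine, and with all arrays between colon and either small intestine or adenomas, none of the 44 or 45 tested was called, with an unadjusted p under 0.05 for 11, 20 and 9 of them. Over all genes such a p was found for 6624 of 21610, 4918 of 20611 and 6368 of 21831, in the same order. Without colon replicate 3, colon had 2 of 47 called higher than in small intestine (*Acsl4*, 2.27, and *Acacb*, 2.16) and 8 lower, led by *Dgat1* (-5.18), *Acsl5* (-3.92), *Dgat2* (-3.26), *Lpcat3* (-2.80) and *Mlxipl* (-2.78). In that fit 3.33% of all genes were called higher and 3.9% lower. Also without that array, adenomas had 5 of 47 called higher than in colon, namely *Dgat1* (2.49), *Dgat2* (2.13), *Acsl5* (2.08), *Me1* (2.06) and *Agpat2* (1.33), and *Acacb* (-2.39) lower. Of all genes, 5.04% were called higher there and 6.68% lower.

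In CT26, 4 of the 14 regulators were lower than in colon and 4 lower than in adenomas. Against colon, 4 of 45 pathway genes were called higher and 7 lower, beside 21% and 16.1% of all genes, and against adenomas 2 and 11, beside 22% and 20%. The counts of lower genes were thus near those backgrounds. *Pparg* was lower in CT26 by -6.62 and -6.19, and *Nr1h3* by -6.22 and -5.56, in that order, and *Mlxipl* was lower than in adenomas by -4.75. The ceramide desaturase *Degs2* and the elongase *Elovl7* were not well above background on any CT26 array. Their signal was at least 2533-fold and 602-fold lower than in colon, and at least 2334-fold and 334-fold lower than in adenomas, where a CT26 array counted at the dimmest signal that was well above background on it, or at the probe's own signal if that was higher. *Thrsp*, set in the same way, was at least 9.30-fold lower than in colon. *Degs1*, which desaturates dihydroceramide, was higher in CT26, by 2.78 over colon and 2.11 over adenomas. *Acsl4* (2.70), *Cyb5r3* (2.03) and the NADPH source *Me1* (1.78) were higher than in colon, and *Gpam* (1.83), which opens glycerolipid synthesis, higher than in adenomas. Without colon replicate 3, 5 of 47 were higher, *Mbtps2* (1.40) among them, and 8 lower, beside 20.1% and 19.4% of all genes. All of the genes named above against colon were called in the same direction in that fit, with *Pparg* at -7.295, *Nr1h3* at -5.45, *Degs1* at 2.96, *Acsl4* at 2.17, *Me1* at 2.01 and *Cyb5r3* at 1.635. The bounds were then at least 1969-fold for *Degs2*, 453-fold for *Elovl7* and 5.09-fold for *Thrsp*.

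**Figure D4:**
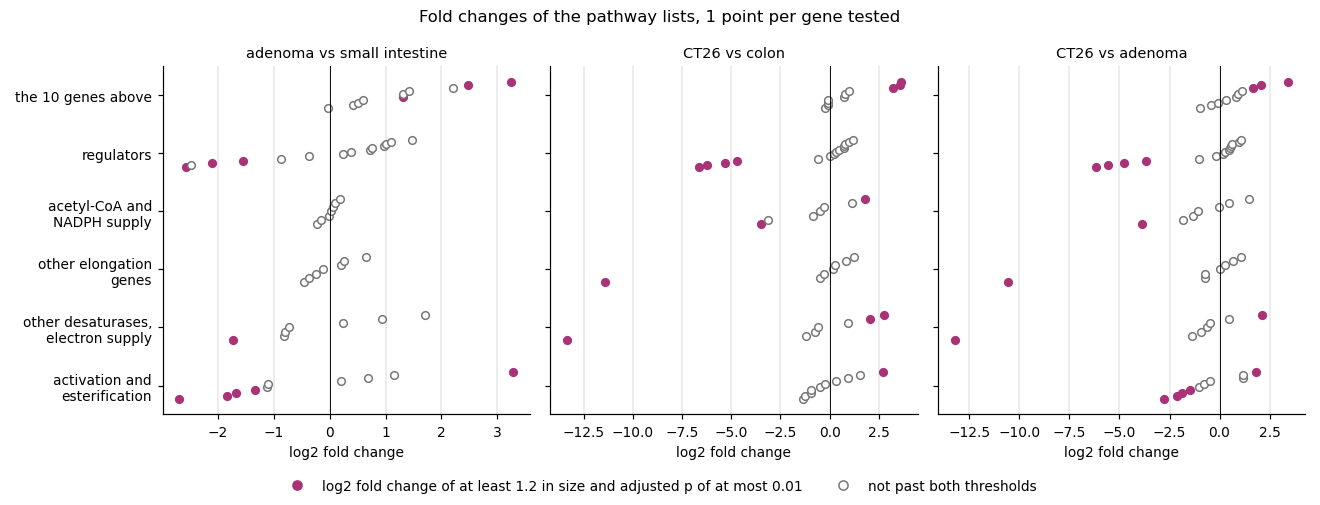
Log2 fold change (horizontal axis, scales differ between panels) of the 10 genes and of the 5 pathway lists in 3 comparisons, with 1 point per gene tested and filled points past both thresholds. The filled points of the 10 genes all lie to the right of 0, and those of the regulators all to the left.

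Lists of cell type markers were read on the same arrays, as the log2 of their summed signal. All 10 proliferation genes passed background on each of the arrays and ran from 5.61 to 6.51 in small intestine, 6.55 to 6.73 in adjacent tissue, 7.35 to 7.49 in adenomas, 6.56 to 6.76 in colon and 8.32 to 8.72 in CT26. The 5 mesenchyme genes ran from 3.003 to 4.34, 3.94 to 4.62, 5.29 to 5.47, 3.97 to 5.16 and 6.62 to 8.26 in the same order. Both lists thus lay higher in adenomas and CT26 than in small intestine, as *Fads1* and *Fads3* did, and their part in these results was not tested. The mesenchyme genes were unlike each other in CT26, where *Vim* (7.41), *Col1a1* (3.97), *Pdgfrb* (2.21) and *Col3a1* (1.18) were well above background on all 3 arrays and *Thy1* on none. *Vim* and *Pdgfrb* had their highest group mean there, *Col1a1* had it in adenomas (4.07), and *Col3a1* had a lower mean in CT26 than in small intestine (1.95), colon (2.82) or adenomas (3.515).

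Adipocytes use the same enzymes. Their 8 markers summed to 4.68 to 6.27 in small intestine, 2.78 to 2.98 in adjacent tissue, 3.09 to 3.61 in adenomas, 1.98 to 4.38 in colon and -1.39 to -1.13 in CT26. *Lep* was well above background on 1 small intestine array and on no other array. *Cidec*, a protein of lipid droplets, had the largest mean of the list in small intestine (5.09), adjacent tissue (2.37) and adenomas (3.14). It reached 6.245 on a small intestine array. In colon and CT26 *Plin4* had the largest mean (1.18 and -1.64). *Cidec* had a mean of 0.87 in colon and was not well above background on any CT26 array. The median of the 8 markers was -0.47, 1.31 and -4.02 on small intestine replicates 1, 2 and 3, with 8, 7 and 4 of them well above background. *Scd1* ranked these arrays as the median did (0.28, 2.54 and -2.43), but the sum did not (4.68, 6.23 and 6.27). *Fads1*, *Fads3* and *Fasn* had the order of *Scd1* too. *Acly*, *Acaca*, *Elovl5*, *Scd2* and *Fads2* were highest on replicate 1, and *Elovl6* on replicate 3. By the median of the 8 markers, adenoma replicates 1 (-3.79) and 3 (-3.63) lay above small intestine replicate 3, and adenoma replicate 2 (-4.675) below it. The part of the adipocyte list in the results of the 10 genes was not tested.

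The 10 enterocyte markers, all well above background in these groups, summed to between 11.54 and 11.99 in small intestine, 10.88 and 11.19 in adjacent tissue and 8.55 and 9.25 in adenomas. In CT26 they summed to 1.34 to 1.99. Between 3 and 4 of 8 general epithelial markers were well above background on a CT26 array, and *Cdh1*, *Epcam*, *Krt19* and *Vil1* were so on none. Markers of other organs were read too. *Gpx5*, 1 of 4 epididymis markers, had a mean of 3.95 in adjacent tissue and 1.72 in adenomas and was not well above background elsewhere, and the other 3 were so on no array. Pancreatic acinar markers summed to 2.65 to 3.65 in adenomas and to at most 0.39 on any other array, a sum dominated by *Pnliprp1*, whose mean was 3.13 in adenomas. Of the other 3, *Ctrb1* had a mean of -1.505 in adenomas and -2.245 in small intestine, *Cel* had -2.68 and -2.48, and *Cpa1* (-3.895 in adenomas) was well above background on 2 adenoma arrays and on no other array. Their part in the adenoma results was not tested.

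**Figure D5:**
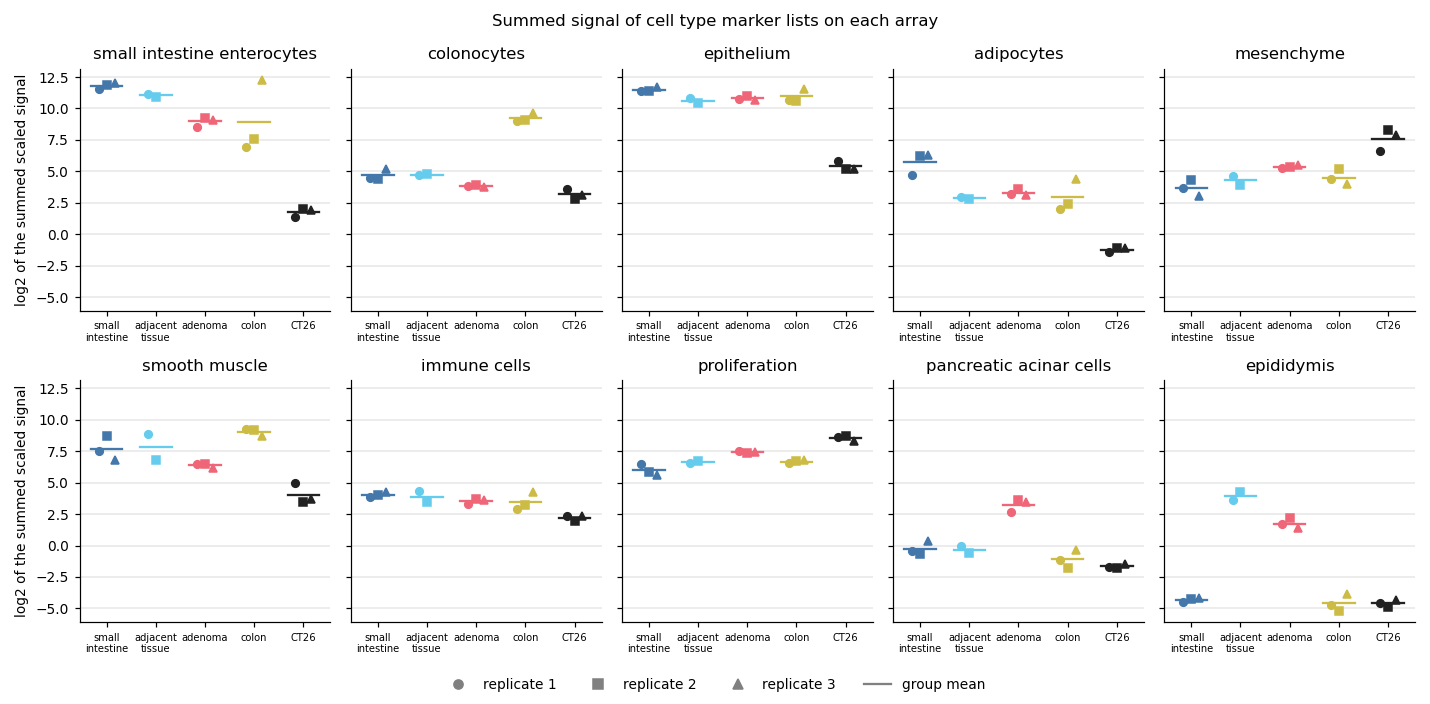
Summed signal of 10 marker lists (vertical axis, log2 of the sum of scaled signals) on each array, with 1 marker per array and a line at the group mean. Proliferation and mesenchyme have their lowest mean in small intestine and their highest in CT26, the adipocyte and enterocyte lists have the opposite, and colon replicate 3 lies with small intestine in the enterocyte list.

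Among 16005 genes well above background on all 14 arrays, those whose signal was most like *Fads3* were *Vasn* (r = 0.985) and *Rbms1* (0.976), and those most like *Fads1* were *Hdac7* (0.984) and *Rcor2* (0.982). *Scd2* was most like *Cyp51* (0.965) and *Dock1* (0.964). *Acaca* was most like *Cdkn3* (0.960) and *Nek2* (0.955), *Acly* like *Casd1* (0.949) and *Cd9* (0.936), and *Fads2* like *Nrm* (0.942) and *Epm2aip1* (0.927). *Scd1* was most like *Mrps16* (0.932), *Elovl5* like *Pigk* (0.938), *Elovl6* like *Nadk2* (0.890), and *Fasn* like *Arpp19* (0.865) and *Zfp473* (0.859). The second gene for *Scd1* and for *Elovl5* was a probe with no gene name. Within the 10 genes, *Elovl6* had r between -0.317 and 0.261 with each of the others over the 14 arrays. Without CT26 its r ran from -0.433 with *Acly* to 0.307 with *Fads3* and 0.585 with *Fads1*.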

How the data were processed

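RNA of 14 samples in 5 groups was hybridized to SurePrint G3 Mouse 8x60K arrays, 1 array per sample, on 2 slides. The authors deposited scanner output (Feature Extraction 10.7.3.1) with a background-subtracted intensity for each spot, and a table of log2 values they had normalized between arrays by a method not given in the sources used here. Its 28 further columns of flags and detection calls per sample, and its columns of the authors' own comparisons (fold changes and p-values), were not used.

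Control and outlier spots (103 to 206 per array) were left out, the log2 intensity was scaled to the 75th percentile of each array, and replicate spots were averaged. RefSeq accessions in a GRCm38.p6 gene table named 26582 of the 55681 probes, 3094 were named through other entries of it, and 26005 kept their name in the files. Groups came from the sample labels. Each of 7 pairs of groups was fitted with limma 3.58.1 in R 4.3.3 (lmFit, eBayes) over the probes that all arrays of 1 or both groups showed well above background, with two-sided p-values adjusted over all probes. The script was tested on simulated data. The number of arrays limits the precision. Genes and lists were chosen with earlier results of these data known. The text names all 10 genes, up to 5 called pathway genes per comparison and direction with the largest fold change, the 2 genes most like each of the 10 genes (1 of these is not reported here), and markers whose list moves with a result. Alternatives were the authors' table, normexp (offset 50), quantile normalization, median scaling, other filters, a fit of all groups, an intensity trend, blocks for slide or replicate number, other thresholds, any probe of a gene, and leaving out each array. Promoters were RefSeq sequences, searched and drawn with Python 3 scripts.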

Additional observations from a re-analysis of the deposited data

How the results depend on the processing

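No called difference of the 10 genes changed sign. Over all alternatives, the fold change of a single gene kept its side of the thresholds and its direction, or moved by less than the spread between arrays if not called, 1115 times. It moved by more, uncalled, 28 times, became called 13 times and lost its call 24 times. At an adjusted p of at most 0.05 and any fold, 7 of the 10 genes were called between adenomas and small intestine, 3 between adenomas and adjacent tissue, 1 between adenomas and colon and 5 between CT26 and adenomas. Of all genes tested, 52.8%, 20.3%, 12.7% and 63.5% were called at that threshold, in the same order. Without a filter on dim probes, 0 of the 10 genes and 0.15% of all genes were called between adenomas and adjacent tissue. It was 0 and 0.88% with all 5 groups in 1 fit, and 0 and 0.735% with the slide as a block. The fit described above called 4.18% of all genes there. The fit of all groups called 1 of the 10 genes, *Acly*, between colon and small intestine. It called 3.85% of all genes there, against 0.0097% with these groups alone. Scaling to the array median called 5 genes between CT26 and colon and 5 between CT26 and adenomas, adding *Acaca* and *Elovl5*. Of all genes it called 52% and 54.3% in these comparisons. It moved the median fold change of all genes to 0.98 and 0.83 there, from 0.32 and 0.34, and the share of all calls that were higher to 73.3% from 56.6% and to 67.0% from 52.4%. That share was 79.9% instead of 57.6% between adenomas and adjacent tissue and 71.4% instead of 56.1% between adenomas and colon. Quantile normalization and the authors' table each called 1 of the 10 genes, *Scd1*, between CT26 and adenomas. Of all genes they called 38.4% and 29.3%, in that order. The causes were not tested. Between adenomas and adjacent tissue the alternatives called 0 to 4491 of all genes, against 926, and between adenomas and colon 4 to 2773, against 807. Arrays were also left out 1 at a time, and fits that left 1 array in a group are not counted here. Between adenomas and small intestine 2 to 5 of the 10 genes were called, beside 14.4% to 26.8% of all genes. Between colon and small intestine it was 0 to 1, beside 0% to 7.24%. Between CT26 and adenomas it was 1 to 4, beside 36.5% to 41.7%. The number stayed at 3 between CT26 and colon, beside 24.6% to 39.5%, and at 0 between adenomas and colon, beside 0.018% to 11.7%. It was also 0 between adenomas and adjacent tissue, beside 0% to 0.212%, and between adjacent tissue and small intestine, beside 0%.

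Replicate numbers did not pair the samples, since deviations from the group means of same-numbered arrays had correlations between -0.322 and 0.291, and between CT26 and adenomas, where all 6 arrays were closest to the array of their own number, of 0.022 to 0.085. With a replicate block, 0 of the 10 genes and 0.37% of all genes were called between adenomas and adjacent tissue. With the numbers of the sample titles as the block it was 0 and 0%. The replicate block changed no other count of the 10 genes.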
